A study of Mus musculus with 16 samples.

Results

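The genes of the motile cilium were followed across 4 groups of mouse primary forebrain neuronal cultures. Members were the protein-coding rows of the deposited count table whose GENCODE symbol starts with Dnah, Dnaic, Dnaaf, Cfap or Rsph, or is Ccdc39, Ccdc40, Drc1, Drc3, Drc7, Hydin or Spag6. They were chosen by name and by measured level, at least 10 counts in 4 or more libraries. Of 55335 gene rows, 67 carried such a name and 63 met the level. The cultures were perinatal and transduced with lentiviral vectors, with 4 libraries in each of 4 groups. The groups were an empty vector, a short hairpin RNA without mutations, the same hairpin with 2 point mutations and the same hairpin with 5 point mutations. The study's title concerns target-independent effects of hairpins on microRNAs in neurons, and the labels used here do not name the hairpin's target. All groups, the empty vector included, carried a lentivirus, and no untransduced culture was analysed here. Since the labels do not state separate cultures for the replicate libraries, p-values measure only their spread, which may be technical.

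A motile cilium is a whip-like projection built on an axoneme, a ring of microtubule doublets around a central pair. Dynein arms on the doublets make them slide. Radial spokes and the central pair coordinate the arms, and nexin links hold the doublets together. In the brain, motile cilia belong chiefly to ependymal and choroid plexus cells, whereas neurons carry a single primary cilium without dynein arms. Many axonemal genes are switched on together by the transcription factor Foxj1 and the RFX family, whose binding site, the X-box, is a palindrome with the arm GTTGCC.

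The members were low in these cultures. On the scale of CPM (counts scaled to the library's TMM-adjusted total) per kilobase of annotated exon, the median member was at 0.451 and the median of the genes tested at 2.69. Of the 63 members, 52 lay below that second value. The range ran from 0.0162 for Dnah17, an outer arm dynein heavy chain, to 20.9 for Cfap36, which binds the small GTPase Arl3 of the primary cilium. Library totals ran from 33795369 to 49824569 counts, and 47 members had 10 counts in every one of the 16 libraries. All 63 members passed the edgeR filter on low counts.

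Values close to the level rule were as follows. Cfap157, Cfap73, Cfap97d1 and Dnah3 failed it, with mean counts of 3.62, 4.50, 3.62 and 3.81 per library. Just inside were Cfap52 with 10 counts in 4 libraries, Rsph6a in 6, and Cfap126, Cfap53 and Rsph14 in 8 each. The 4 libraries that admitted Cfap52 were the 4 with the 2-mutation hairpin, so its difference between groups is given as a description without a test. Rsph6a passed through its 4 libraries with the 5-mutation hairpin and 2 with the unmutated hairpin, and is treated likewise.

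Summed over the 63 members, the level was 392.3 ± 3.86 CPM with the empty vector, 349.7 ± 7.23 with the unmutated hairpin, 524.2 ± 8.73 with the 2-mutation hairpin and 359.5 ± 11.1 with the 5-mutation hairpin (SD, n = 4 libraries each). The 2-mutation libraries, at 516.3 to 535.5 CPM, were all above the other 12. Empty vector libraries, at 388.3 to 396.6, were above both other hairpin groups, whose ranges of 344.4 to 359.9 and 346.0 to 370.8 overlapped. Without the 4 most abundant members (Cfap36, Cfap20, Ccdc39 and Cfap97), the other 59 summed to 245.2 ± 4.16, 234.0 ± 4.71, 352.5 ± 4.98 and 226.5 ± 6.60 CPM in the same order. In bulk RNA, fewer cells of a type and less RNA per cell cannot be told apart.

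**Figure D1:**
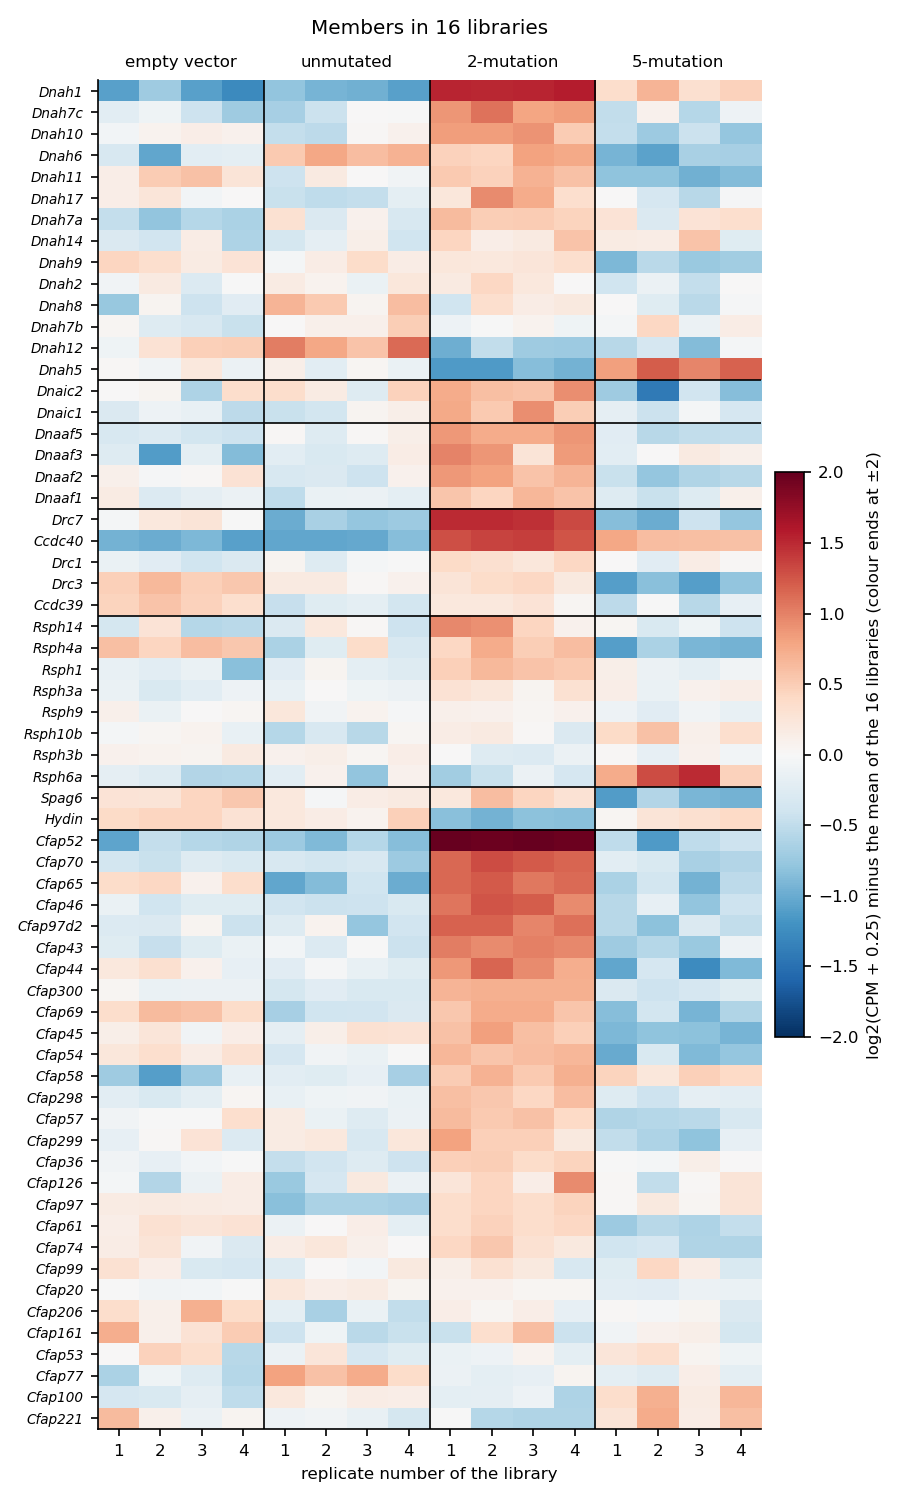
Each row is 1 of the 63 members, ordered by role, and each column is 1 of the 16 libraries; colour is log2(CPM + 0.25) minus the row's mean over the libraries. The 4 columns of the 2-mutation hairpin are red in most rows, with Dnah5 and Hydin blue, and the 4 columns of the 5-mutation hairpin are blue in many rows, with Dnah5 and Rsph6a red.

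With the 2-mutation hairpin, most of these axonemal genes were more abundant than with the empty vector. Of 63 members, 38 rose and 8 fell (edgeR adjusted p below 0.05), while among all 19479 genes tested 32.5% rose and 30.8% fell. The members' median log2 fold change was 0.52, beside -0.01 for all genes tested. Fold changes over 2 were called up for 17 members and down for 3. The 46 members with a mean of at least 1 CPM, for which low counts matter least, gave 28 higher and 6 lower. The 38 and the 17 include Cfap52. Without replicate 4 of the 2-mutation hairpin, 5 members and not 8 were called lower.

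With the 5-mutation hairpin the balance was the other way. Of 63 members, 12 rose and 24 fell against the empty vector, while 28.4% of all genes tested rose and 26.5% fell. The members' median log2 fold change was -0.14, beside 0.03 for all genes. The 12 include Rsph6a. With the unmutated hairpin 10 rose and 15 fell, beside 20.8% and 19.5% of all genes, and the members' median was -0.06. These 3 comparisons share the empty vector libraries.

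Directly between hairpins, 44 members were higher and 6 lower with 2 mutations than with 5 mutations, where 32.3% and 33.6% of all genes were called in those directions. The median difference was 0.99 on the log2 scale, beside -0.05 for all genes. Against the unmutated hairpin, the 2-mutation hairpin had 42 members higher and 6 lower (31.5% and 31.2% of all genes), with a median of 0.66. Against the unmutated hairpin, the 5-mutation hairpin had 9 higher and 23 lower (28.5% and 26.8% of all genes), with a median of -0.07. Against each of the other 3 groups, the share of members higher with 2 mutations was above the share of all genes. Cfap52 and Rsph6a, which met the level rule wholly or partly through libraries of a mutated hairpin, are among the 63 members counted here.

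Complete separation of a group's 4 libraries from the other 12 gave the same picture gene by gene. All 4 libraries of the 2-mutation hairpin were above the other 12 for 30 members, 47.6% of them, beside 18.5% of all genes tested. The 30 include Cfap52, which met the level rule through those same 4 libraries. All 4 were below for Dnah5 and Hydin alone among members, beside 15.2% of all genes. The 5-mutation libraries were lowest for 12 members (Cfap20, Cfap44, Cfap45, Cfap57, Cfap61, Cfap74, Dnaaf2, Dnah11, Dnah9, Drc3, Rsph4a and Spag6), 19.0% of them, beside 10.2% of all genes. They were highest for Dnah5 and Rsph6a, beside 10.2% of all genes, and Rsph6a met the level rule partly through them. Empty vector libraries were highest for Ccdc39 and Drc3 (5.11% of all genes) and lowest for Dnah7a (4.81%). Unmutated hairpin libraries were highest for Cfap77 and Dnah12 (4.86%) and lowest for Cfap36 and Cfap97 (5.39%), so separation of these 2 groups was about as frequent among members as among all genes or rarer.

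**Figure D2:**
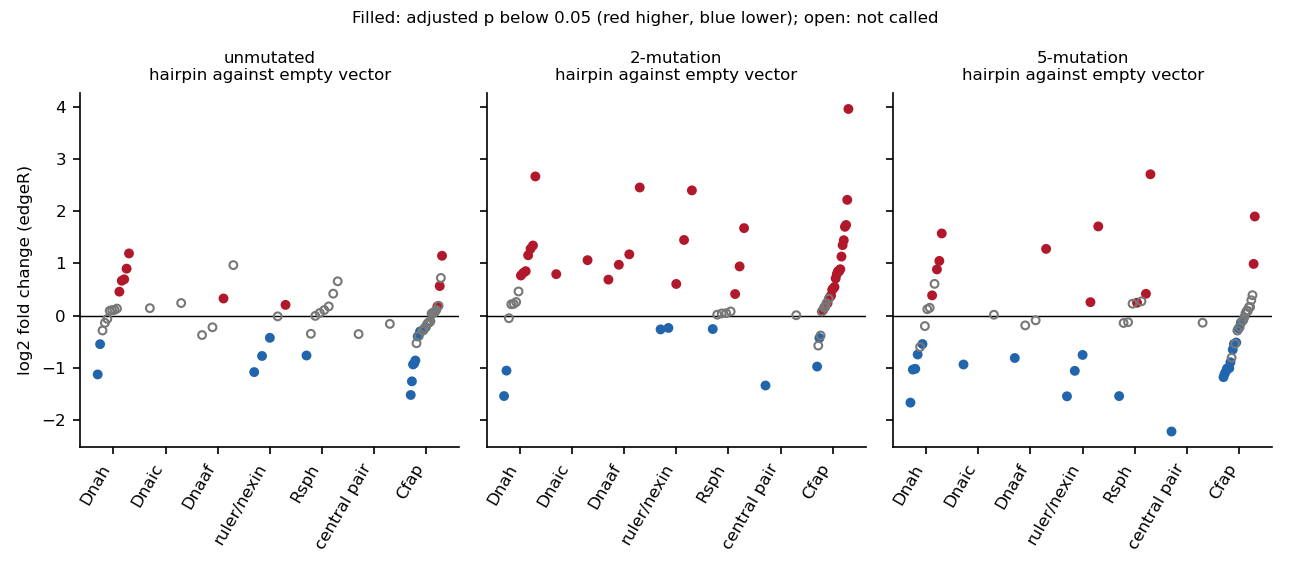
Points are the 63 members grouped by role (x axis), and the y axis is the edgeR log2 fold change of each hairpin against the empty vector; filled red and blue points passed adjusted p below 0.05. In the middle panel 38 points are red and 8 blue; in the right panel 12 are red and 24 blue.

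Among the axonemal dynein heavy chains, the motor subunits of the arms, 7 of 14 rose and 2 fell with the 2-mutation hairpin. Of all genes tested, 32.5% rose and 30.8% fell with it. Dnah1, an inner arm heavy chain (ENSMUSG00000019027.8, chr14:31260375-31323896 on GRCm38, as all gene spans here), was at 2.7, 3.6, 2.69 and 2.35 CPM with the empty vector, 3.37, 3.06, 2.97 and 2.73 with the unmutated hairpin, 17.8, 17.6, 17.8 and 18.4 with the 2-mutation hairpin and 7.74, 9.83, 7.56 and 8.39 with the 5-mutation hairpin. Its 2-mutation and 5-mutation libraries formed separate levels, both above every library of the other groups. The log2 fold change against the empty vector was 2.67 ± 0.11 (SE, edgeR adjusted p = 2.88e-15) with 2 mutations and 1.57 ± 0.11 (SE, edgeR adjusted p = 5.45e-11) with 5. With the unmutated hairpin it was 0.10 ± 0.12, not past the threshold. The difference between the mutated hairpins was 1.09 ± 0.10 (SE, edgeR adjusted p = 1.26e-09).

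Dnah5, an outer arm heavy chain whose loss causes primary ciliary dyskinesia (ENSMUSG00000022262.8, chr15:28203752-28472052), moved in opposite directions with the mutated hairpins. It was at 15.2, 14.3, 17.4 and 13.7 CPM with the empty vector, 16.3, 12.9, 15.3 and 13.6 with the unmutated hairpin, 6.7, 6.65, 8.16 and 7.64 with the 2-mutation hairpin and 26.6, 34.7, 29.8 and 34.2 with the 5-mutation hairpin. The 2-mutation libraries were the lowest 4 of 16 and the 5-mutation libraries the highest 4. The log2 fold changes were -1.05 ± 0.10 (SE, edgeR adjusted p = 1.61e-08) and 1.05 ± 0.10 (SE, edgeR adjusted p = 9.01e-09), and between the 2 mutated hairpins -2.10 ± 0.10 (edgeR adjusted p = 1.58e-13). With the unmutated hairpin the value was -0.06 ± 0.10 (edgeR adjusted p = 0.652).

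Values differed among other outer arm heavy chains. Dnah9 was at 15.7, 14.6, 12.9 and 14 CPM with the empty vector and 6.08, 7.89, 6.81 and 7.06 with the 5-mutation hairpin. It fell with 5 mutations (-1.03 ± 0.09 (SE, edgeR adjusted p = 1.38e-09)), and its values with the unmutated and 2-mutation hairpins were -0.14 and -0.05, neither past the threshold. Dnah11 fell with 5 mutations too, from 1.31 ± 0.229 to 0.409 ± 0.0341 CPM (-1.67 ± 0.21 (SE, edgeR adjusted p = 4.08e-07), n = 4). With the unmutated hairpin Dnah11 was -0.55 ± 0.19 (SE, edgeR adjusted p = 0.0238), a call lost without Empty_Vector replicate 2 or 3 or unmutated replicate 1 or 4 (0.0511 to 0.097) and with no filter on low counts (0.0887). Dnah17, at 0.269 CPM with the empty vector, was 0.85 ± 0.33 with 2 mutations (edgeR adjusted p = 0.0291), past the threshold but not without Empty_Vector replicate 3 or 4 or 2-mutation replicate 2 or 3 (0.0673 to 0.124), nor with DESeq2 or with no filter on low counts (0.0672 and 0.0773). With the unmutated hairpin Dnah17 was -1.13 ± 0.41 (SE, edgeR adjusted p = 0.0336), also past the threshold, but not without Empty_Vector replicate 1 or 2 or unmutated replicate 1, 2 or 3 (0.0646 to 0.0889), nor with DESeq2 or with no filter on low counts (0.0591 and 0.0784). Dnah8 was not called with either mutated hairpin and rose with the unmutated one (0.90 ± 0.22 (SE, edgeR adjusted p = 0.00187)), and Dnah2 of the inner arm was not called against the empty vector with any hairpin.

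Inner arm heavy chains differed among themselves. Dnah6 rose with the unmutated hairpin (1.19 ± 0.19 (SE, edgeR adjusted p = 2.91e-05)) and with 2 mutations (1.16 ± 0.19 (SE, edgeR adjusted p = 1.54e-05)), and was -0.55 ± 0.21 with 5 mutations (edgeR adjusted p = 0.0323). That last call was lost without Empty_Vector replicate 1, 3 or 4 or 5-mutation replicate 1 or 2 (0.0629 to 0.103), and in a fit of only the 2 groups (0.0938). Its libraries held 1.29, 0.685, 1.41 and 1.44 CPM with the empty vector, 2.51, 3.04, 2.71 and 2.88 with the unmutated hairpin, 2.41, 2.36, 3.1 and 3.01 with the 2-mutation hairpin and 0.763, 0.667, 0.973 and 0.969 with the 5-mutation hairpin. Dnah12 was at 0.603, 0.864, 1.02 and 1.03 CPM with the empty vector, 1.59, 1.31, 1.1 and 1.74 with the unmutated hairpin, 0.213, 0.397, 0.306 and 0.301 with the 2-mutation hairpin and 0.37, 0.471, 0.25 and 0.637 with the 5-mutation hairpin. It was highest with the unmutated hairpin and fell with 2 mutations (-1.54 ± 0.28 (SE, edgeR adjusted p = 5.66e-05)) and with 5 (-1.02 ± 0.27 (SE, edgeR adjusted p = 0.00265)). Its rise with the unmutated hairpin (0.69 ± 0.24 (SE, edgeR adjusted p = 0.0243)) missed the threshold when Empty_Vector replicate 1 or 2 or unmutated hairpin replicate 1 or 4 was left out (adjusted p from 0.0520 to 0.0861). Dnah10 was 0.77 ± 0.16 with 2 mutations and -0.75 ± 0.17 with 5, both past the threshold.

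Dnah7a, Dnah7b and Dnah7c lie near each other on chromosome 1 and are close copies, so how reads were split between them is uncertain. Dnah7c rose with 2 mutations from 1.97 ± 0.402 to 4.97 ± 0.494 CPM (1.34 ± 0.19 (SE, edgeR adjusted p = 1.49e-06)). Dnah7a rose with each hairpin, by 0.67 ± 0.18 (SE, edgeR adjusted p = 0.00553) for the unmutated, 1.28 ± 0.18 (SE, edgeR adjusted p = 1.57e-06) for the 2-mutation and 0.89 ± 0.18 (SE, edgeR adjusted p = 2.44e-04) for the 5-mutation hairpin on the log2 scale, and its empty vector libraries were the lowest 4. Dnah7b was 0.22 with 2 mutations, not past the threshold. Its rise with 5 mutations (0.39 ± 0.14 (SE, edgeR adjusted p = 0.0256)) was lost without Empty_Vector replicate 2, 3 or 4 or 5-mutation replicate 2 or 4 (adjusted p from 0.0506 to 0.122), and that with the unmutated hairpin (0.46 ± 0.14 (SE, edgeR adjusted p = 0.0133)) without Empty_Vector replicate 4 or unmutated replicate 4 (0.0518 and 0.0760).

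Both intermediate chains, which anchor the outer arm, rose with 2 mutations, beside 32.5% of all genes. Dnaic1 was at 1.32, 1.55, 1.48 and 1.08 CPM with the empty vector and 2.99, 2.51, 3.39 and 2.45 with the 2-mutation hairpin (1.06 ± 0.18 (SE, edgeR adjusted p = 2.22e-05)). Dnaic2 was at 2.15, 2.23, 1.3 and 2.78 and 3.71, 3.35, 3.27 and 4.29 (0.79 ± 0.23 (SE, edgeR adjusted p = 0.00432)), and its 5-mutation libraries held 1.2, 0.647, 1.58 and 1.07 (-0.93 ± 0.25 (SE, edgeR adjusted p = 0.00321)). For both genes the 4 libraries with 2 mutations were above the other 12.

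The 4 dynein arm assembly factors, cytoplasmic proteins that help fold and preassemble the arms, all rose with 2 mutations, beside 32.5% of all genes. Dnaaf5 (chr5:139150223-139186510) was at 9.99, 10.4, 9.69 and 9.36 CPM with the empty vector, 12.7, 10.4, 12.8 and 13.6 with the unmutated hairpin, 23.2, 21.1, 21.3 and 23.3 with the 2-mutation hairpin and 10.7, 8.46, 8.87 and 9.0 with the 5-mutation hairpin. The 4 libraries with 2 mutations were above the other 12. The log2 fold changes were 1.17 ± 0.08 (SE, edgeR adjusted p = 2.00e-11) with 2 mutations, 0.33 ± 0.08 (SE, edgeR adjusted p = 0.00255) with the unmutated hairpin and -0.09 ± 0.08 with 5 mutations, the last not past the threshold. Dnaaf1, Dnaaf2 and Dnaaf3 rose by 0.97, 0.69 and 2.46 on the log2 scale. Dnaaf2 fell with 5 mutations (-0.81 ± 0.16 (SE, edgeR adjusted p = 1.57e-04)), and Dnaaf3, at 0.117 CPM with the empty vector, was 1.28 ± 0.50 (edgeR adjusted p = 0.0334), a call lost without Empty_Vector replicate 2 or 4 or 5-mutation replicate 3 or 4 (0.0638 to 0.111).

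Ccdc39 and Ccdc40 form the molecular ruler that sets the spacing of arms and spokes along the doublet, and their proteins act as a pair. Their RNAs did not move together. Ccdc40 (ENSMUSG00000039963.20, chr11:119228572-119265238) was at 2.81, 2.71, 2.92 and 2.52 CPM with the empty vector, 2.61, 2.6, 2.64 and 3.0 with the unmutated hairpin, 14.1, 14.8, 15.1 and 13.8 with the 2-mutation hairpin and 9.85, 8.77, 8.64 and 8.56 with the 5-mutation hairpin. Both mutated hairpins gave levels above every library of the other groups, 2.40 ± 0.08 (SE, edgeR adjusted p = 1.82e-16) for 2 mutations and 1.71 ± 0.08 (SE, edgeR adjusted p = 1.38e-13) for 5 on the log2 scale, and the unmutated hairpin gave -0.01 ± 0.09. Ccdc39 (chr3:33812362-33844310) was at 33.3, 36.4, 33.8 and 31.1 CPM with the empty vector, 17.7, 20.7, 21.3 and 18.9 with the unmutated hairpin, 28.3, 28.6, 29.8 and 25.3 with the 2-mutation hairpin and 16.9, 24.3, 16.6 and 21.7 with the 5-mutation hairpin. It fell with the unmutated hairpin (-0.77 ± 0.10 (SE, edgeR adjusted p = 7.14e-06)) and with 5 mutations (-0.75 ± 0.10 (SE, edgeR adjusted p = 4.47e-06)). Its fall with 2 mutations (-0.27 ± 0.10 (SE, edgeR adjusted p = 0.0272)) was small and missed the threshold without Empty_Vector replicate 2 or 3 or 2-mutation replicate 4 (adjusted p 0.0795, 0.0523 and 0.0874). Of the annotated exon bases of Ccdc39, 16.87% also belong to Ttc14 on the opposite strand, which was at 121.0, 96.4, 92.2 and 111.0 CPM in the 4 groups in the same order; its part in the Ccdc39 counts was not tested.

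The Drc genes encode subunits of the nexin-dynein regulatory complex, which links neighbouring doublets. Drc7 (chr8:95055103-95078141) was at 1.49, 1.82, 1.88 and 1.53 CPM with the empty vector, 0.647, 0.889, 0.794 and 0.833 with the unmutated hairpin, 4.76, 4.76, 4.66 and 4.21 with the 2-mutation hairpin and 0.741, 0.647, 1.08 and 0.79 with the 5-mutation hairpin. It fell with the unmutated hairpin (-1.08 ± 0.17 (SE, edgeR adjusted p = 2.29e-05)) and with 5 mutations (-1.06 ± 0.17 (SE, edgeR adjusted p = 1.36e-05)) and rose with 2 (1.45 ± 0.15 (SE, edgeR adjusted p = 1.73e-08)). Between the mutated hairpins the difference was 2.51 ± 0.16 (edgeR adjusted p = 4.78e-12), or 5.69-fold. Drc3 fell with each hairpin, most with 5 mutations. Its libraries held 11.3, 12.8, 11.3 and 11.8 CPM with the empty vector, 9.11, 9.19, 8.22 and 8.6 with the unmutated hairpin, 9.62, 10.4, 10.8 and 9.21 with the 2-mutation hairpin and 3.6, 4.37, 3.61 and 4.54 with the 5-mutation hairpin. The 5-mutation log2 fold change was -1.55 ± 0.09 (SE, edgeR adjusted p = 1.47e-12). The smaller fall with 2 mutations (-0.24 ± 0.08 (SE, edgeR adjusted p = 0.0146)) missed the threshold without Empty_Vector replicate 2 or 2-mutation replicate 4 (adjusted p 0.0584 and 0.0586). Drc1, a subunit of the complex's base, rose with 2 mutations (0.61 ± 0.08 (SE, edgeR adjusted p = 5.48e-07)) and with 5 (0.26 ± 0.08 (SE, edgeR adjusted p = 0.00847)), and was 0.20 ± 0.08 with the unmutated hairpin (edgeR adjusted p = 0.0435). This last value missed the threshold without any one of 6 of the 8 libraries (all but Empty_Vector replicate 1 and unmutated replicate 2, adjusted p from 0.0625 to 0.153).

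**Figure D3:**
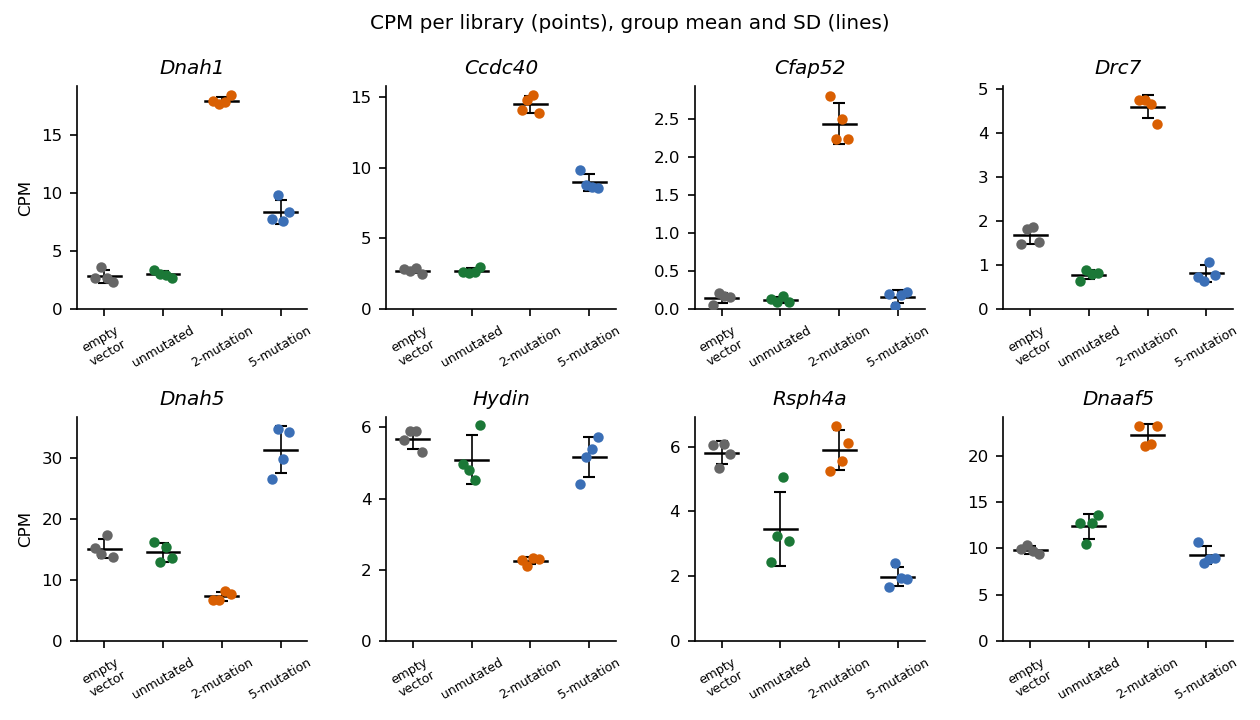
Points are single libraries, with the group on the x axis and CPM from 0 on the y axis; black lines are the mean and SD of 4 libraries. Dnah1, Ccdc40, Cfap52, Drc7 and Dnaaf5 are highest with the 2-mutation hairpin, Hydin is lowest there, Dnah5 is lowest there and highest with the 5-mutation hairpin, and Rsph4a is lowest with the 5-mutation hairpin.

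Of the 8 radial spoke genes, 3 rose and 1 fell with 2 mutations, a share of higher calls near the 32.5% of all genes. Rsph4a, a spoke head protein (chr10:33905111-33916021), was at 6.06, 5.33, 6.07 and 5.78 CPM with the empty vector, 2.42, 3.25, 5.07 and 3.08 with the unmutated hairpin, 5.25, 6.65, 5.55 and 6.1 with the 2-mutation hairpin and 1.68, 2.41, 1.95 and 1.91 with the 5-mutation hairpin. It fell with 5 mutations (-1.54 ± 0.17 (SE, edgeR adjusted p = 7.21e-08)) and with the unmutated hairpin (-0.75 ± 0.16 (SE, edgeR adjusted p = 7.43e-04)), and was 0.02 ± 0.16 with 2 mutations. Rsph1, another spoke head protein, rose with 2 mutations (0.94 ± 0.15 (SE, edgeR adjusted p = 1.21e-05)), as did Rsph14 (1.68 ± 0.43 (SE, edgeR adjusted p = 0.00176)) at a mean of 0.171 CPM in the empty vector group. Rsph9 was between 14.1 and 19.4 CPM in all 16 libraries and was not called against the empty vector with any hairpin.

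Rsph6a, a spoke head gene known mainly from sperm, was at 0.172, 0.149, 0.0663 and 0.072 CPM with the empty vector, 0.162, 0.257, 0.0256 and 0.252 with the unmutated hairpin, 0.0427, 0.0992, 0.188 and 0.129 with the 2-mutation hairpin and 0.545, 0.922, 1.08 and 0.408 with the 5-mutation hairpin. The 5-mutation libraries were the highest 4, and the level rule was met partly through them. Rsph10b rose with 5 mutations (0.42 ± 0.16 (SE, edgeR adjusted p = 0.0291)), a call lost without Empty_Vector replicate 1 or 4 or 5-mutation replicate 1 or 2 (adjusted p from 0.0544 to 0.0965). Rsph3a and Rsph3b are close copies whose reads may have been split: Rsph3a rose (0.41 ± 0.08 (SE, edgeR adjusted p = 5.74e-05)) and Rsph3b fell (-0.26 ± 0.08 (SE, edgeR adjusted p = 0.00538)) with 2 mutations.

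Neither gene named for the central pair rose with 2 mutations. Hydin, a very large central pair protein whose loss causes hydrocephalus in mice (ENSMUSG00000059854.8, chr8:110266977-110610253), was at 5.66, 5.89, 5.9 and 5.3 CPM with the empty vector, 4.99, 4.79, 4.51 and 6.08 with the unmutated hairpin, 2.28, 2.11, 2.33 and 2.3 with the 2-mutation hairpin and 4.4, 5.18, 5.39 and 5.74 with the 5-mutation hairpin. The 2-mutation libraries were the lowest 4 and the other 3 groups overlapped. The log2 fold changes were -1.33 ± 0.11 (SE, edgeR adjusted p = 8.58e-10) with 2 mutations, -0.16 ± 0.11 with the unmutated hairpin and -0.14 ± 0.11 with 5 mutations. Spag6 was at 0.631, 0.625, 0.729 and 0.816 CPM with the empty vector, 0.593, 0.468, 0.564 and 0.58 with the unmutated hairpin, 0.597, 0.868, 0.729 and 0.644 with the 2-mutation hairpin and 0.0872, 0.235, 0.139 and 0.128 with the 5-mutation hairpin. It fell with 5 mutations (-2.21 ± 0.28 (SE, edgeR adjusted p = 7.17e-07)) and was 0.01 ± 0.23 with 2. Spag6 has a close copy, Spag6l, at 16.1, 14.4, 23.8 and 15.4 CPM in the 4 groups, so reads of the pair may have been split.

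The 28 Cfap genes encode cilia and flagella associated proteins of several sites in the axoneme, and 19 rose and 2 fell with 2 mutations. The 19 include Cfap52. Among all genes tested, 32.5% rose and 30.8% fell with 2 mutations. Among components of central pair projections, Cfap46 rose from 3.03 ± 0.244 to 8.26 ± 0.837 CPM (1.44 ± 0.12 (SE, edgeR adjusted p = 8.96e-10)), Cfap70 from 1.46 ± 0.0988 to 4.78 ± 0.254 (1.70 ± 0.14 (SE, edgeR adjusted p = 6.43e-10)) and Cfap65 from 2.87 ± 0.311 to 5.29 ± 0.274 (0.89 ± 0.15 (SE, edgeR adjusted p = 2.30e-05)). For these genes the 2-mutation libraries were above the other 12. Cfap65 fell with the unmutated hairpin (-1.26 ± 0.17 (SE, edgeR adjusted p = 2.98e-06)) and with 5 mutations (-1.01 ± 0.17 (SE, edgeR adjusted p = 1.86e-05)). Cfap54 and Cfap74 rose with 2 mutations, by 0.38 and 0.35, and fell with 5, with log2 fold changes of -1.01 and -0.52. Cfap221, of the same projection as those last genes, fell with 2 mutations (-0.98 ± 0.32 (SE, edgeR adjusted p = 0.0101)), a call lost without Empty_Vector replicate 1 (adjusted p 0.061).

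Cfap69, also of the central pair, was at 15.9, 19.6, 18.9 and 16.2 CPM with the empty vector, 7.79, 9.38, 9.53 and 10.1 with the unmutated hairpin, 18.3, 21, 20.9 and 18.4 with the 2-mutation hairpin and 6.78, 9.67, 6.42 and 8.11 with the 5-mutation hairpin. It fell with the unmutated hairpin (-0.94 ± 0.11 (SE, edgeR adjusted p = 1.07e-06)) and with 5 mutations (-1.18 ± 0.11 (SE, edgeR adjusted p = 1.96e-08)), and was 0.15 ± 0.11 with 2. The libraries thus fell into a higher pair of groups, empty vector and 2 mutations, and a lower pair. Cfap43 and Cfap44, which tether an inner arm dynein to the doublet, rose with 2 mutations, Cfap43 from 1.84 ± 0.192 to 4.71 ± 0.11 CPM (1.35 ± 0.15 (SE, edgeR adjusted p = 6.70e-08)) and Cfap44 by 0.85. Cfap44 fell with 5 (-1.01 ± 0.17 (SE, edgeR adjusted p = 2.45e-05)). Cfap206, of the spoke base, fell with the unmutated hairpin (-0.92 ± 0.19 (SE, edgeR adjusted p = 6.05e-04)). Its fall with 2 mutations (-0.43 ± 0.19 (SE, edgeR adjusted p = 0.0488)) was lost without any one of 7 of the 8 libraries compared, Empty_Vector replicate 2 being the exception (adjusted p from 0.0576 to 0.217), with DESeq2 (0.0554) and with no filter on low counts (0.116).

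Among microtubule inner proteins, which line the inside of the doublets, Cfap52 (ENSMUSG00000020904.11, chr11:67924806-67965651) was at 0.0574, 0.208, 0.177 and 0.168 CPM with the empty vector, 0.135, 0.0935, 0.179 and 0.101 with the unmutated hairpin, 2.79, 2.23, 2.49 and 2.23 with the 2-mutation hairpin and 0.196, 0.0392, 0.195 and 0.229 with the 5-mutation hairpin. Its mean with 2 mutations was 15.6-fold that with the empty vector in the edgeR fit, and the other 3 groups overlapped. Its antisense neighbour 9130017K11Rik, which shares 8.36% of its exon bases, was at 0.876 CPM with the empty vector and 0.505 with 2 mutations. Cfap45 rose with 2 mutations (0.55 ± 0.12 (SE, edgeR adjusted p = 4.54e-04)) and fell with 5 (-1.07 ± 0.13 (SE, edgeR adjusted p = 3.69e-07)). Cfap20, at 30.1 to 41.1 CPM in all libraries, was 0.18, 0.10 and -0.14 with the unmutated, 2-mutation and 5-mutation hairpins.

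Cfap298 and Cfap300, which take part in dynein arm assembly, rose with 2 mutations as the Dnaaf genes did. Cfap298 was at 14.6, 13.6, 14.7 and 17.2 CPM with the empty vector and 25.6, 24.5, 22.5 and 25.8 with 2 mutations (0.71 ± 0.07 (SE, edgeR adjusted p = 6.82e-09)). Cfap300 was at 12.9, 11.5, 11.6 and 11.6 and 20.4, 20.7, 20.8 and 20.8 (0.80 ± 0.06 (SE, edgeR adjusted p = 5.46e-11)). In both, the 2-mutation libraries lay above the other 12 and the 5-mutation means were 14 and 10.1 CPM.

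The more abundant Cfap36 and Cfap97 were lowest with the unmutated hairpin. Cfap36 (chr11:29221532-29247409) was at 53.1, 49.8, 53.7 and 55.9 CPM with the empty vector, 40.4, 42.7, 46.8 and 42.1 with the unmutated hairpin, 77.8, 78.9, 72.2 and 76.2 with the 2-mutation hairpin and 55.4, 54.4, 60.5 and 56 with the 5-mutation hairpin. It fell with the unmutated hairpin (-0.30 ± 0.05 (SE, edgeR adjusted p = 4.33e-05)) and rose with 2 mutations (0.52 ± 0.05 (SE, edgeR adjusted p = 5.31e-09)). Cfap97 (chr8:46151771-46195590) fell with the unmutated hairpin from 26, 26.2, 26 and 25.6 to 12.9, 14.9, 14.8 and 14.5 CPM (-0.86 ± 0.06 (SE, edgeR adjusted p = 1.53e-10)). Its log2 fold changes with 2 and 5 mutations were 0.24 ± 0.06 and -0.03 ± 0.06, the first past the threshold.

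The remaining Cfap genes differed in where they were called. Cfap77 was highest with the unmutated hairpin (3.07, 2.62, 2.94 and 2.22 CPM, against 0.976, 1.55, 1.35 and 1.03 with the empty vector), a rise of 1.15 ± 0.17 (SE, edgeR adjusted p = 1.23e-05). Cfap58, a gene known from sperm flagella, rose with both mutated hairpins, by 2.22 and 1.90, from 0.136 ± 0.109 CPM. Cfap100 rose with 5 mutations (0.99 ± 0.19 (SE, edgeR adjusted p = 1.14e-04)). Its rise with the unmutated hairpin (0.57 ± 0.19 (SE, edgeR adjusted p = 0.023)) was lost without Empty_Vector replicate 4 or unmutated replicate 1 (0.0542 and 0.0715) and with no filter on low counts (0.07). Cfap97d2 rose with 2 mutations from 0.431, 0.417, 0.596 and 0.36 to 1.6, 1.61, 1.36 and 1.5 CPM (1.74 ± 0.24 (SE, edgeR adjusted p = 1.83e-06)). Cfap57 and Cfap61, which bind inner arm and spoke parts of the doublet, fell with 5 mutations (-0.65 and -0.90). Cfap161 fell with the unmutated hairpin (-1.52 ± 0.45 (SE, edgeR adjusted p = 0.00934)). Cfap53 and Cfap99 were called in none of the 6 comparisons, at means of 0.30 and 0.269 CPM with the empty vector, and a level that low limits what could be detected.

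Windows upstream of the members' starts were read for letters of the X-box, because 30 members were highest in the same 4 libraries and RFX factors are the textbook regulators of these genes. RefSeq promoters (GRCm38.p6, 250 bases before to 50 after the start) were found for 54 of the 63 members. The letters GTTGCC, on either strand, were in 21 of the 54 (38.9%), beside 14.14% of 27025 genes with a promoter. By window the shares were 37.9% of 58 and 12.51% of 32851. Median GC content was 55.8% in the members' windows and 52.7% in all windows. Of the 25 members with a promoter whose 2-mutation libraries were highest, 13 had the letters, and of the 29 others, 8. The windows below are shown because these are the members with the match wholly within the 30 bases upstream of a start and, with Cfap298, the member with both arms as searched for below. They run in the gene's direction, 5′ to 3′, with the match in capitals; GGCAAC is GTTGCC on the opposite strand.
Cfap298, chr16:90934896-90934925, minus strand: tttgactGTTGCCCCTGGCAACagccactt
Cfap44, chr16:44394768-44394797, plus strand: ggacgttgctatGGCAACcgcagtaaacgg
Cfap46, chr7:139683816-139683845, minus strand: ttggtctgggccccgtctctaGGCAACcgc
Cfap97d2, chr8:13705858-13705887, plus strand: cctgggtgccatGGCAACcgtcacatgacc
Dnaaf2, chr12:69198430-69198459, minus strand: cctcctcccaggcgttactatGGCAACaaa
Dnah10, chr5:124725053-124725082, plus strand: cgcgctggcgccGTTGCCcaggtccccgtt
Dnaic2, chr11:114727381-114727410, plus strand: ccagggttgctaGGCAACtggtaaactccg
Drc1, chr5:30281363-30281392, plus strand: caggtgactgctttcccttGGCAACggctt
Hydin, chr8:110266947-110266976, plus strand: cactctgcggttgctgtGGCAACagatggt

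Of these 9 genes 8 rose with 2 mutations and Hydin fell, so the letters occurred beside both directions. Among all members 60.3% rose and 12.7% fell with 2 mutations, and among all genes 32.5% and 30.8%. The 9 were picked by their match, and a link between the letters and direction was not tested. A stricter search for both arms, GTTNCC and GGNAAC with 0 to 3 bases between, which overlaps the first motif, found Cfap298 alone among members (1.9% of 54, beside 0.94% of all genes). It matched at -69 and -188 bases from the start, and the first is shown. An arm with other letters, such as gttgct beside the match of Cfap44, was not counted. The forkhead letters TGTTTAC, the core recognised by Foxj1 relatives, were in 3 of 54 (5.6%, beside 4.05%). A match is a run of letters only, and no match says only that these letters are not in that window.

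The regulators did not all follow one direction. Of 12 measured regulators of motile ciliogenesis, 6 rose and 1 fell with 2 mutations, and 3 rose and 4 fell with 5, the last counts near the 28.4% and 26.5% of all genes. With 2 mutations 32.5% of all genes rose and 30.8% fell. Those that rose with 2 mutations include E2f4 (0.49 ± 0.07 (SE, edgeR adjusted p = 1.24e-06)), Fank1 (0.52 ± 0.08 (SE, edgeR adjusted p = 1.00e-05)) and Ccno (0.50 ± 0.13 (SE, edgeR adjusted p = 0.00223)). With 5 mutations E2f4 was not called, Fank1 rose (0.45) and Ccno fell (-0.83). Foxj1 was at 6.02 CPM (empty vector), 8.46 (unmutated hairpin), 8.77 (2 mutations) and 2.02 (5 mutations). It rose with 2 mutations (0.54 ± 0.16 (SE, edgeR adjusted p = 0.0059)) and fell with 5 (-1.60 ± 0.18 (SE, edgeR adjusted p = 2.88e-07)). The value with the unmutated hairpin was 0.49 ± 0.16 (SE, edgeR adjusted p = 0.019), past the threshold but not without Empty_Vector replicate 1 or 3 or unmutated replicate 2 (0.0558 to 0.062). Rfx3, far more abundant at 418 CPM (empty vector), 337 (unmutated hairpin), 208 (2 mutations) and 166 (5 mutations), fell with both mutated hairpins, with log2 fold changes of -1.01 and -1.34, and with the unmutated hairpin (-0.31 ± 0.08 (SE, edgeR adjusted p = 0.00497)). Rfx2 fell with 5 mutations (-1.91 ± 0.21 (SE, edgeR adjusted p = 9.17e-08)) and was -0.24 with 2, not past the threshold.

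Other axonemal genes outside the naming rule were read list by list, and the counts with 2 mutations stand beside 32.5% higher and 30.8% lower among all genes. Of 6 dynein docking genes, which fix the outer arm to the doublet, all 6 rose with 2 mutations. With 5 mutations 1 rose and 3 fell, beside 28.4% and 26.5% of all genes. Ccdc151 was 0.94 ± 0.09 (SE, edgeR adjusted p = 4.78e-09) and Lrrc56 0.80 ± 0.09 (SE, edgeR adjusted p = 1.41e-07). Of 15 other central pair and spoke genes 11 rose with 2 mutations. Stk36, a kinase needed for central pair formation, was 1.68 ± 0.08 (SE, edgeR adjusted p = 6.39e-14) and Iqub 2.36 ± 0.18 (SE, edgeR adjusted p = 1.08e-10). Of 8 other nexin link and ruler genes 6 rose; the smallest p was that of Ccdc65 (1.16 ± 0.07 (SE, edgeR adjusted p = 6.28e-13)) and the highest log2 fold change that of Ccdc113 (2.13 ± 0.24 (SE, edgeR adjusted p = 5.27e-08)). Of 11 other arm assembly genes 6 rose and 2 fell, of 6 other dynein subunits 4 rose and 1 fell, and of 13 tektins and inner proteins 7 rose and 3 fell.

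The genes of intraflagellar transport, the particle traffic that builds both motile and primary cilia, were mostly higher with 2 mutations. Of 29, 23 rose and 3 fell with 2 mutations (32.5% and 30.8% of all genes), with a median log2 fold change of 0.40. With 5 mutations 7 rose and 10 fell, beside 28.4% and 26.5% of all genes. Ift88 was at 16.2 CPM (empty vector), 17.3 (unmutated hairpin), 35 (2 mutations) and 10.3 (5 mutations). It rose with 2 mutations (1.11 ± 0.06 (SE, edgeR adjusted p = 1.31e-13)) and fell with 5 (-0.65 ± 0.06 (SE, edgeR adjusted p = 4.09e-09)). Kifap3, of the kinesin motor, fell with 2 mutations (-0.20) and with 5 (-1.19). Of 31 genes of the primary cilium, its BBSome and transition zone, 20 rose and 7 fell with 2 mutations, with a median of 0.24. The unmutated hairpin gave 5 higher and 8 lower for intraflagellar transport and 5 higher and 11 lower for the primary cilium list. Of all genes, 20.8% rose and 19.5% fell with the unmutated hairpin.

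**Figure D4:**
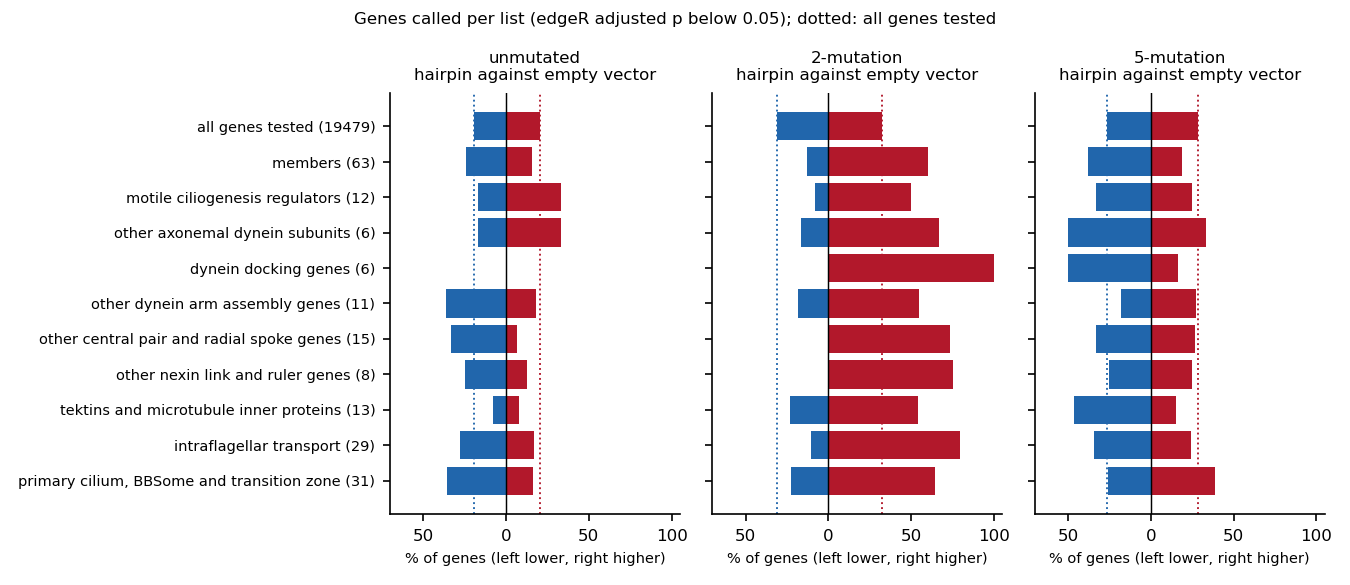
Bars give the percent of the genes tested in each list that were higher (red, right) or lower (blue, left) with each hairpin against the empty vector, with the number of genes tested in parentheses; dotted lines mark all genes tested. In the middle panel, for the 2-mutation hairpin, the red bar of every cilium list passes the dotted line at 32.5%.

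Markers of ciliated cells were read beside these results. Of all genes tested, 20.8% rose and 19.5% fell with the unmutated hairpin, 32.5% and 30.8% with 2 mutations, and 28.4% and 26.5% with 5. Of 13 ependymal markers 8 could be tested, and 3 rose and none fell with the unmutated hairpin, 5 rose and 2 fell with 2 mutations, and 1 rose and 5 fell with 5. Their summed level ran from 21.7 to 25.2 CPM with the empty vector, 23.9 to 29.5 with the unmutated hairpin, 33.2 to 36.8 with 2 mutations and 12.8 to 13.4 with 5. Like the members' sum it was highest with 2 mutations and below the empty vector with 5, but with the unmutated hairpin it overlapped the empty vector and reached above it, where the members' sum was lower. Vwa3a and Foxj1 made up most of that sum. Vwa3a was at 11.4 CPM (empty vector), 10.9 (unmutated hairpin), 19.1 (2 mutations) and 6.16 (5 mutations), and Fam183b was at 0.876 CPM (empty vector), 0.643 (unmutated hairpin), 2.2 (2 mutations) and 0.847 (5 mutations). Mlf1 (-0.83 ± 0.17 (SE, edgeR adjusted p = 2.56e-04)) and Rarres2 (-0.87 ± 0.33 (SE, edgeR adjusted p = 0.0244)) fell with 2 mutations. That Rarres2 call was lost without 2-mutation replicate 3 (0.0809). The calls with the unmutated hairpin were Foxj1, Mlf1 and Rarres2. There the Rarres2 rise (edgeR adjusted p = 0.0468) was lost without any one of 7 of the 8 libraries (0.0558 to 0.128) and with DESeq2. Unmutated replicate 1 was the exception. Ak7 was the marker that rose with 5 mutations (1.02 ± 0.26 (SE, edgeR adjusted p = 0.00212)). The other 5 markers, Ccdc153, Tmem212, Sntn, Odf3b and Mia, were too low to test, with group means of at most 0.200 CPM. Foxj1, Dynlrb2 and Ak7 of this list are also in the other cilium lists.

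Choroid plexus markers without Ttr summed to 4.32 to 7.36 CPM with the empty vector, 6.59 to 9.53 with the unmutated hairpin, 11.2 to 15.6 with 2 mutations and 13.6 to 24.6 with 5, so both mutated hairpins were above the empty vector and overlapped. Much of that sum was 1 gene, Sostdc1, at 2.33 CPM (empty vector), 2.62 (unmutated hairpin), 8.79 (2 mutations) and 12.6 (5 mutations). Ttr, left out of the sum, ran from 1.1 to 26.2 CPM within the empty vector group and from 5.0 to 112 with 5 mutations, and was not called with any hairpin. Of 9 markers tested, Prlr and Sostdc1 rose and Kl fell with 2 mutations, and Sostdc1 alone was called with 5. Among all genes 32.5% rose and 30.8% fell with 2 mutations, and 28.4% and 26.5% with 5. The Kl call was lost without any one of 6 of the 8 libraries (all but Empty_Vector replicate 1 and 2-mutation replicate 2, adjusted p from 0.0513 to 0.162) and with DESeq2 (0.0502).

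Markers of other cells also differed between groups, and their counts stand beside the shares of all genes tested. Those were 20.8% higher and 19.5% lower with the unmutated hairpin, 32.5% and 30.8% with 2 mutations, and 28.4% and 26.5% with 5. Of 8 neuronal markers, 6 fell and none rose with the unmutated hairpin, where they summed to 5210 to 5410 CPM against 6070 to 6460 with the empty vector; 3 rose and 4 fell with 2 mutations. Of 10 astrocyte markers, 6 fell and none rose with 2 mutations, and their sum was 736 to 931 CPM against 965 to 1190 with the empty vector. Of the 10, 3 fell with 5 mutations, a share near that of all genes. The sum was lower still there, at 483 to 695 CPM, and was 738 to 1080 with the unmutated hairpin. Slc1a2 alone was at 713 CPM (empty vector), 454 (unmutated hairpin), 572 (2 mutations) and 393 (5 mutations). Of 6 oligodendrocyte lineage markers tested, 2 fell with 2 mutations, near the share of all genes, and 4 rose with the unmutated hairpin. Mbp rose with 5 mutations (1.41 ± 0.06 (SE, edgeR adjusted p = 2.78e-14)), while Olig1 and Olig2 fell (-0.97 and -1.36). Both microglial markers tested, Csf1r and Aif1, fell with 2 mutations, from a list sum of 2.41 to 3.75 CPM with the empty vector to 0.917 to 1.33. Of 8 vascular and meningeal markers tested, 1 rose and 1 fell with 2 mutations, and 3 rose and 2 fell with 5. Their sum ran from 27.6 to 37.9 CPM with the empty vector, 22.3 to 35.6 with 2 mutations and 19.6 to 87.6 with 5. Col1a1 ran from 8.48 to 58.2 CPM with 5 mutations, against 2.62 to 6.16 with the empty vector. The Flt1 and Pdgfrb rises with 5 mutations were lost when some single libraries were left out. The part of a change in cell types in these results was not tested. Of 15 sperm genes, 12 had a mean below 0.1 CPM.

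A pair of ribosomal RNA related loci moved with the 2-mutation group. The share of counts assigned to Gm26917 was 6.16% in the empty vector group, 7.61% in the unmutated, 11.1% in the 2-mutation and 8.75% in the 5-mutation group. Computed without Gm26917 and Gm42418, 37 members rose and 8 fell with 2 mutations. Overlap with other genes was the other limit: 11 members share at least 5% of their exon bases with another gene, and whether counting used strand is not given in the sources used here. Dnaaf1 shares 20.7% with Taf1c on the opposite strand, which rose with 2 mutations by 0.71 on the log2 scale, and its part in the Dnaaf1 counts was not tested. Dnaaf2 shares 32.65% with 9330151L19Rik on the opposite strand, at 22.9 CPM with the empty vector. That gene's log2 fold changes were 0.01 with 2 mutations and -0.44 with 5, and its part in the Dnaaf2 counts was not tested.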

How the data were processed

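Total RNA of 16 libraries (4 groups of 4) was depleted of ribosomal RNA and made into directional libraries, per the labels' protocols. Alignment was by STAR 2.7.2b after trimming tools (Trim Galore 0.6.0 and cutadapt 1.15), with GRCm38.p6 as the genome, per the submitters' processing notes, which also name featureCounts. The deposited file holds raw counts per gene that the authors made with featureCounts. Strand setting, treatment of reads with several matches and annotation release are not given in the sources used here, so counts of overlapping or near-identical genes are uncertain.

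Symbols and gene types came from GENCODE vM21 (GRCm38): 55154 of 55335 IDs matched and 181 did not. Genes were filtered with filterByExpr (19479 kept), scaled by TMM and tested with edgeR 4.0.16 (quasi-likelihood, robust, 2-sided) in 1 model of the 16 libraries with 1 coefficient per group, and p-values were Benjamini-Hochberg adjusted over the 19479 genes. A call is an adjusted p below 0.05. The code was tested on simulated counts. CPM are TMM-scaled. Replicates differed by more than counting noise. The members and the gene lists were chosen with earlier results of these data known. Full statistics were given, per comparison with the empty vector, for up to 8 called members with the highest and up to 8 with the lowest log2 fold change, at a mean of at least 0.5 CPM (Cfap52 without a test); other members were chosen for their role after their values were seen, and listed genes were taken from the smallest p upward. The alternatives were RLE and upper quartile scaling, DESeq2 1.42.0, other filters, protein-coding genes only, removal of Gm26917 and Gm42418, a replicate block, the 2 compared groups alone, and each library left out in turn. Promoter windows are RefSeq's.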

Additional observations from a re-analysis of the deposited data

Results flagged for a closer look

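For the members given full statistics, each group of 4 libraries was examined for a single library far from the others by the size of its gap to the nearest other relative to the group's range (Dixon's test at the 95% level). Chance gives such a gap in about 1 of 20 groups, and it was found in 5 of 128. Ccdc40 had a high library with the unmutated hairpin (3.0 CPM, replicate 4) and another with the 5-mutation hairpin (9.85 CPM, replicate 1). Cfap70 had a low library with the unmutated hairpin (1.06 CPM), Cfap77 a high one with the 5-mutation hairpin (1.83 CPM), and Dnah7a a low one with the 5-mutation hairpin (1.71 CPM). For Ccdc40 and Cfap70 the groups stayed apart with the distant library included: Ccdc40 was higher in every 5-mutation library than in any empty vector library, and Cfap70 was lower in every unmutated library than in any 2-mutation library.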

How the results depend on the processing

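The counts of members called kept within 1.5 times their value in 6 comparisons under each scaling, filter, tool and choice of groups tried, and no named member reversed its direction. Members called higher with the 2-mutation hairpin against the empty vector ranged from 29 (at least 1 CPM in 4 libraries, which leaves fewer members to test) to 39, and were 34 with DESeq2. Leaving out single libraries, the count called lower in that comparison ranged from 5 (without 2-mutation replicate 4) to 8. With 5 mutations against the empty vector, 21 to 25 were lower and 9 to 13 higher. The summed level moved by more than 1 SD where it was scaled on other genes: with protein-coding genes only it was 456 (empty vector), 403 (unmutated), 584 (2 mutations) and 414 CPM (5 mutations), and without Gm26917 and Gm42418 it was 439, 389, 572 and 397 CPM. With the replicate block, 39 members were higher and 8 lower with 2 mutations against the empty vector, 10 and 15 with the unmutated hairpin, and 13 and 25 with 5 mutations. The main model did not pair libraries by replicate number, since in no comparison did each same-number pair correlate above 0.1. For the unmutated hairpin against the empty vector, libraries correlated best with their own number in 4 of 4 cases. Same-number r was 0.076 to 0.143 there, and other-number r -0.109 to 0.045. The 2-mutation hairpin also gave 4 of 4 against the empty vector (0.061 to 0.193, beside -0.148 to 0.052) and against the unmutated hairpin (0.068 to 0.143, beside -0.108 to 0.03). Each comparison with the 5-mutation hairpin gave 3 of 4, with overlapping ranges. These values hint at pairing by number, from the data and not from the design, which the main model leaves out. Depth limits the members below 1 CPM on average, 17 of 63, for which the spread of counts is wide.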
